A study of Mus musculus with 10 samples.

Results

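The autophagy machinery was followed through 41 genes, a list of ATG genes, cargo receptors, tethering complexes and the transcription factors Tfeb and Tfe3 that was looked up by gene symbol among the 19782 genes of the deposited table. All 41 were found, and all 41 were among the 12505 genes with enough counts to be tested. Smart-Seq libraries had been made from CD45low CD11b+ microglia, the macrophages resident in brain tissue, which were sorted from mouse hippocampus. The 5xFAD repopulated group (3 libraries) came from 5xFAD mice, a transgenic line that models familial Alzheimer disease, in which transgenes driven by a neuronal promoter lead to amyloid plaques. From 4 months of age these mice had 1 month of chow containing PLX3397 (290 mg/kg), which blocks the CSF1 receptor and depletes microglia, followed by normal diet for 1 month. The 5xFAD control group (3 libraries) came from 5xFAD mice on normal diet and the wild-type group (4 libraries) from wild-type mice on normal diet, with no age stated for either in the labels. Whether the libraries of a group came from separate animals is not stated in the labels, so each p-value reflects only the spread between these libraries, which may be technical.

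Autophagy encloses cytoplasm, aggregates or organelles in a double membrane, the autophagosome, and delivers them to lysosomes. A kinase complex around ULK1 starts the process, a lipid kinase complex around BECN1 marks the membrane, and a conjugation system attaches small ubiquitin-like proteins of the ATG8 family (LC3 and GABARAP) to it. Cargo receptors bind the ATG8 proteins, tethering complexes bring the finished autophagosome to the lysosome, and the transcription factors TFEB and TFE3 switch on lysosomal and autophagy genes. In microglia the same machinery serves the handling of engulfed material and of damaged organelles. TFEB and TFE3 are known to bind the CLEAR element, whose core is the E-box CACGTG.

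RefSeq windows of 250 bases before to 50 bases after a start within a gene on GRCm38.p6 were available for 31 of the 41 genes (35 windows). Such a start need not be the outer end of the gene. The Atg7 window (chr6:114670846-114671145) lies inside the gene, which spans chr6:114643127-114860604. Both strands were searched for CACGTG, the E-box core, and for GTCACGTG, the core with the 2 bases that precede it in the CLEAR consensus. Each match to the longer motif therefore also holds the shorter. CACGTG was in the windows of 7 genes and is in 7.15% of all 32851 windows of the table, and GTCACGTG was in those of 6 genes and is in 2.25% of all windows. The stretches around the matches of 5 of these 6 genes are shown because they carry the recognition letters of the factors among the 41 genes. Capitals mark the matched letters, and each stretch runs 5′ to 3′ along the gene's strand.
Atg3 (chr16:45158714-45158784, plus strand): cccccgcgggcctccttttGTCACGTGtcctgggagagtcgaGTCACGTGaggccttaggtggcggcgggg
Atg7 (chr6:114670943-114670990, plus strand): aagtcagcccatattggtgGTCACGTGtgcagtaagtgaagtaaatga
Tbk1 (chr10:121586763-121586810, minus strand): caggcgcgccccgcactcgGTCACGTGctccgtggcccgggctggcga
Vps16 (chr2:130424281-130424328, plus strand): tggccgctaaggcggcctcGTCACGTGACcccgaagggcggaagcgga
Vps33a (chr5:123573001-123573064, minus strand): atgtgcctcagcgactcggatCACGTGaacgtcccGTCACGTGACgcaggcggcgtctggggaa
Atg3 held a pair of the longer motifs and Vps33a held an E-box core beside the longer motif. Vps16 and Vps33a held the longer motif on both strands at the same place, which reads GTCACGTGAC.

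The whole windows of Atg14 and Atg9a are shown because both genes were lower in control 5xFAD than in wild-type microglia and stand on either side of the motif search. Atg14 holds a match, beginning 1 base before the start, and Atg9a, which had the lowest log2 fold change of the 41 genes in that comparison, holds none. A match describes the letters and is not a bound site.
Atg14 (chr14:47568385-47568684, minus strand): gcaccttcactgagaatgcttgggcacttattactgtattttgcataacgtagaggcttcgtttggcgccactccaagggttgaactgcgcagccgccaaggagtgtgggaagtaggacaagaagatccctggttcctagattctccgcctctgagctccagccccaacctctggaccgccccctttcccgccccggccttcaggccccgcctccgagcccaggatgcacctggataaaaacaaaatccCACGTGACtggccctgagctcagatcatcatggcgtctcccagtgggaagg
Atg9a (chr1:75191961-75192260, minus strand): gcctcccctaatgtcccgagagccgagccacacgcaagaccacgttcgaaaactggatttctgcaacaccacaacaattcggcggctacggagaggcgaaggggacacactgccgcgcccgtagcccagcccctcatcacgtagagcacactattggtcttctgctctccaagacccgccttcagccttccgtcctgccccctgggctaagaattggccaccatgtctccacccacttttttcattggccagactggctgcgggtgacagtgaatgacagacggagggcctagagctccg

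The libraries held 18501136 to 23286814 estimated counts. All 8 microglial marker genes were abundant in every library, with sums of 38740 to 51820 CPM in repopulated, 45570 to 50840 in control and 44350 to 52080 in wild-type libraries (CPM, estimated counts brought to a common library size after composition scaling). Wild-type 3 stood apart, with a mean correlation of 0.92 to the other wild-type libraries, which reached 0.944 to 0.956, and with summed neuronal markers of 60.7 CPM, where they had 10.4 to 12.3 CPM. Control 2 was the lowest control library for 30 of the 41 genes, and its summed neutrophil markers were 318.6 CPM against 17.6 and 24.8 CPM in the other control libraries. These sums were 67.0 to 166.6 CPM in repopulated libraries, and ran from 32.2 CPM in wild-type 2 to 251.2 CPM in wild-type 3. Control 2 also had a Spearman correlation of -0.435 across genes between GC content and its deviation from the mean of the 10 libraries. This correlation was -0.207 in control 1 and -0.1 in control 3, and reached 0.498 in repopulated 2. Y-linked transcripts were near absent in control 1, control 3 and wild-type 2 and present in the other 7 libraries. They were present in every repopulated library but only in control 2 among the control libraries. In repopulated against control, a difference linked to Y-linked transcripts therefore cannot be fully told apart from repopulation. Control against wild type was also unbalanced, since only wild-type 2 was low among the wild-type libraries. The same limit therefore holds for the difference between those groups. For the 41 genes, calls that change without wild-type 3, control 2 or the libraries low in Y-linked transcripts are given with and without those libraries. For other genes of the pathway only counts of calls are. In sorted bulk samples, fewer cells of a type and less RNA per cell cannot be told apart.

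Members of the ATG8 family, Becn1 and Sqstm1 had the highest levels of the 41 genes. Per transcript length (TPM, a length-scaled share of all transcripts of a library, mean over the 10 libraries) Map1lc3b led at 292 TPM, ahead of Gabarap at 199.9, Gabarapl2 at 170.8, Becn1 at 147.6 and Sqstm1 at 128.7 TPM. Epg5 at 2.47 TPM, Wipi1 at 3.16 TPM and Atg9a at 4.86 TPM were the lowest. The 41 genes summed to 1919 ± 34.9 TPM in repopulated, 1640 ± 113 TPM in control and 1965 ± 51.5 TPM in wild-type libraries (SD, n = 3, 3 and 4). The 5 ATG8 genes alone made up 796 ± 6.99, 719.5 ± 45.2 and 718.7 ± 36.7 TPM of these sums, in the same order of groups. TPM values are not corrected for what the most abundant genes take up: the median log2 TPM ratio of all tested genes was -0.39 for control over wild type, 0.15 for repopulated over control and -0.21 for repopulated over wild type, against -0.06, 0.00 and -0.02 in CPM. TPM is therefore used here for levels of genes and their sums, the sums were not tested between groups, and all fold changes and tests of genes are on scaled counts.

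**Figure D1:**
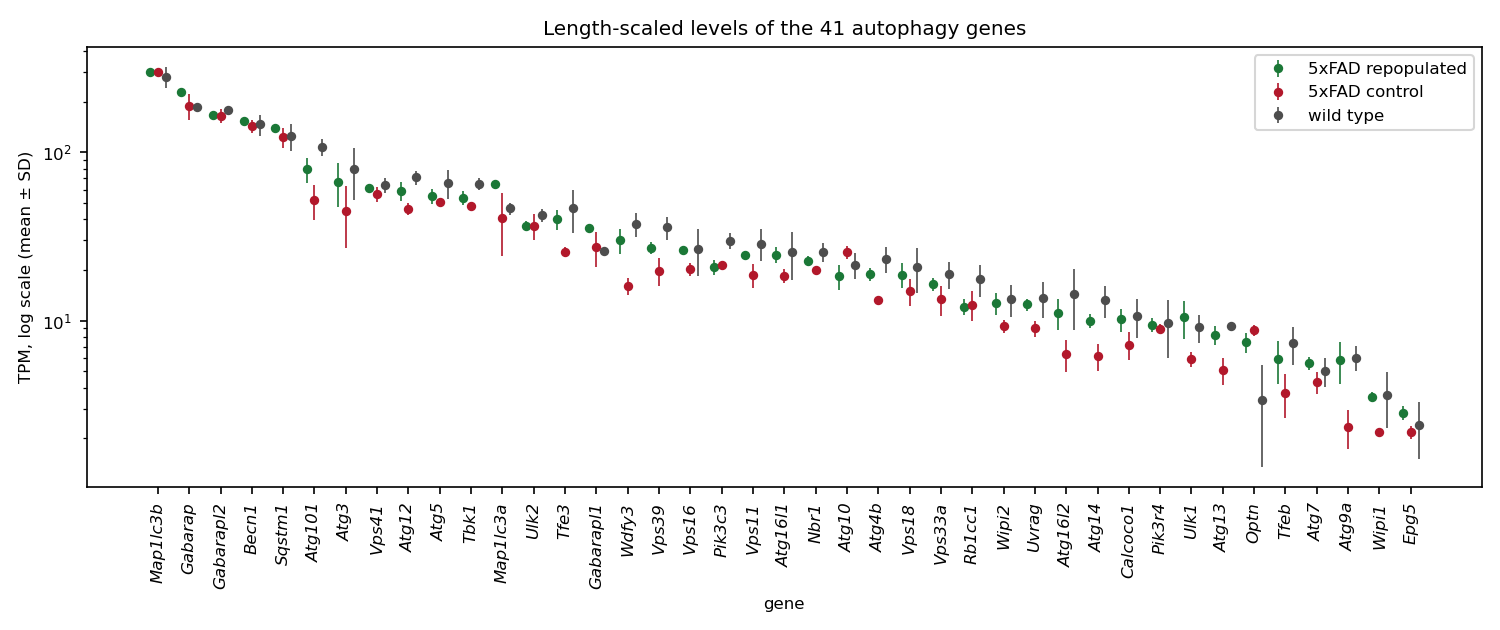
Length-scaled level of each of the 41 genes in TPM on a log axis (mean ± SD over 3 repopulated, 3 control and 4 wild-type libraries), ordered by mean level. Map1lc3b leads at 292 TPM and Epg5 is lowest at 2.47 TPM.

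Control 5xFAD microglia differed from those of wild-type mice in 9 of the 41 genes (22.0%), where 18.1% of all 12505 tested genes passed the same test (edgeR's quasi-likelihood test, Benjamini-Hochberg adjusted p under 0.05). Optn, which encodes a cargo receptor, was the gene that rose (10.1% of all genes rose). Another 8 fell (19.5% of the 41 genes, against 8.04% of all genes that fell): Wdfy3, Atg9a, Atg14, Atg101, Vps39, Atg16l2, Atg4b and Tfe3. They are spread over 7 of the 8 functional groups, with no call in the ATG8 family. The median log2 fold change was -0.13 over the 41 genes and -0.06 over all tested genes, and 14 of the 41 genes had a positive fold change (45.7% of all genes). The median of the 41 genes was -0.07 without control 2 and -0.38 without the libraries low in Y-linked transcripts. The libraries of the 2 groups did not overlap for 11 of the 41 genes, 3 higher and 8 lower in control (26.7% of all genes, 14.1% higher and 12.6% lower).

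That count depends on single libraries. Without control 2, it was 5 (3 rose, 2 fell), with Atg101, Atg14, Atg16l2, Atg4b, Tfe3 and Vps39 no longer called and Gabarap and Gabarapl1 called as higher. Without wild-type 1 or without wild-type 4 it was 5, and 6 without control 1 or without control 3. Without wild-type 3 it was 12 (4 rose, 8 fell), with Atg10, Becn1 and Map1lc3b added as higher. Without the 3 libraries low in Y-linked transcripts, which leaves control 2 as the only control library, it was 4, all lower.

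Repopulated 5xFAD microglia differed from control 5xFAD microglia in 1 of the 41 genes, Wdfy3, which rose (0.568% of all tested genes were called and 0.352% rose), at an adjusted p of 0.0496. At an unadjusted p under 0.05 there were 10 of the 41 genes, against 18.5% of all genes. The median log2 fold change was 0.26 over the 41 genes and 0.00 over all tested genes. A positive fold change was seen in 30 of the 41 genes (49.9% of all genes). The median was 0.14 without control 2, 0.495 without the libraries low in Y-linked transcripts and 0.13 after a correction for GC content and transcript length. The libraries did not overlap for 17 of the 41 genes, with 16 higher and 1, Atg10, lower in repopulated microglia (15.0% of all genes were higher and 15.7% lower). Across 12302 genes the log2 fold change of this comparison followed GC content with a Spearman correlation of 0.43, against -0.26 for control over wild type and 0.14 for repopulated over wild type. These are correlations across genes, which are not independent replicates, and the part of GC content in the gene values below was tested only through the corrected fit.

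Repopulated 5xFAD microglia differed from wild-type microglia in 1 of the 41 genes, Gabarapl1, which rose at an adjusted p of 0.0445 (4.18% of all tested genes were called, 3.4% rose and 0.784% fell). At an unadjusted p under 0.05 there were 5 of the 41 genes (15.1% of all genes). The median log2 fold change was 0.05, against -0.02 over all tested genes, and -0.04 after the GC and length correction. A positive fold change was seen in 22 of the 41 genes (46.6% of all genes). The libraries did not overlap for 6 of the 41 genes, all 6 higher in repopulated microglia (9.17% of all genes were higher and 6.81% lower): Gabarapl1, Gabarap, Map1lc3a, Optn, Sqstm1 and Atg7. The comparisons share libraries, so their values for a gene are given side by side and not as independent evidence.

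**Figure D2:**
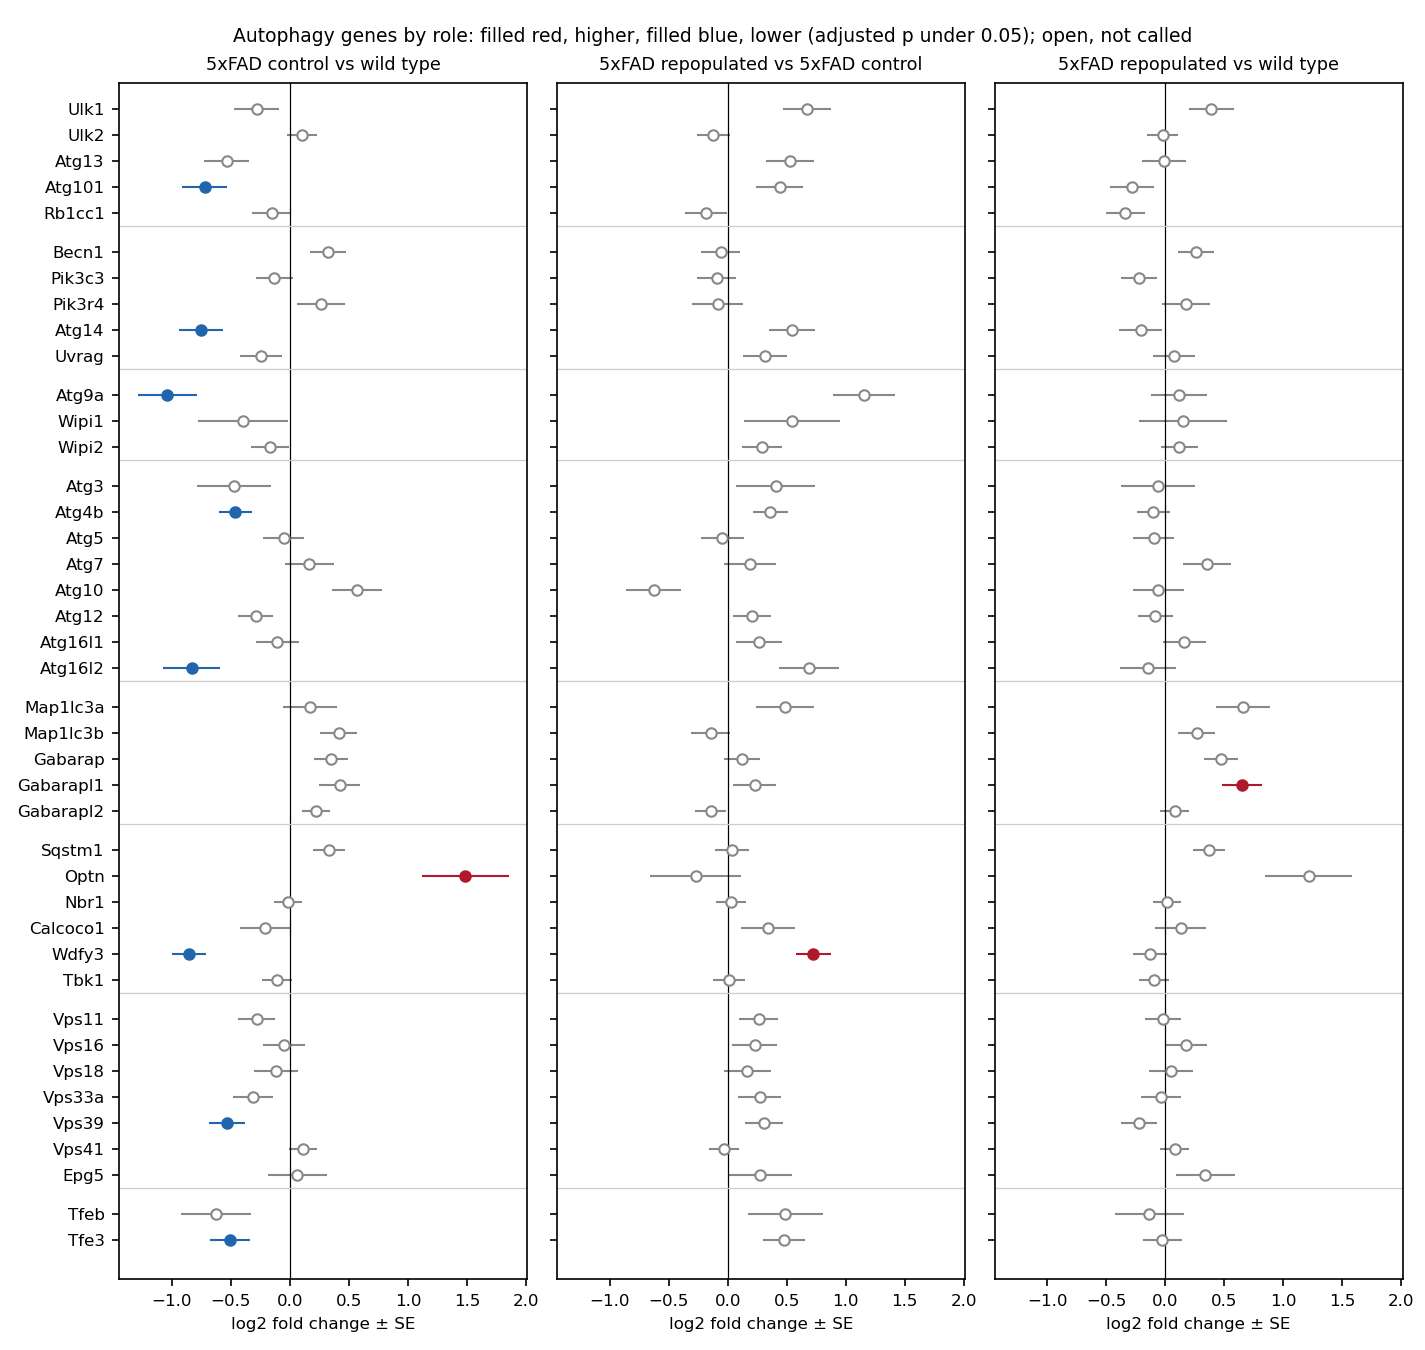
Log2 fold change ± SE of the 41 genes grouped by role in the 3 comparisons, filled where the edgeR adjusted p is under 0.05. Control against wild type has 9 filled points, 8 of them below 0, and each of the other comparisons has 1, Wdfy3 and Gabarapl1.

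Of the 5 genes of the initiation kinase complex, Atg101 fell in control against wild type and the other 4 did not pass edgeR's test in any comparison. Atg101 (chr15:101284301-101290947, as all gene positions from RefSeq on GRCm38.p6) encodes a subunit that stabilises ATG13 in the complex. It had 57.1, 51.1 and 43.6 CPM in repopulated libraries, 39.1, 27.2 and 45.6 CPM in control libraries, and 58.5, 63.4, 74.3 and 50.2 CPM in wild-type libraries. Every control library lay below every wild-type library, while the repopulated range overlapped both. The log2 fold change of control over wild type was -0.72 (SE 0.19, edgeR adjusted p = 0.0153). Without control 2, the lowest library, it was -0.54 and did not pass (edgeR adjusted p = 0.0712, in a range of 0.0042 to 0.0712 over the 21 alternatives).

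Ulk1 encodes the kinase that starts autophagosome formation. It had 29.7, 33.1 and 21.1 CPM in repopulated, 17.4, 15.5 and 19.8 CPM in control, and 21.6, 22.6, 16.9 and 24.1 CPM in wild-type libraries. The repopulated libraries all lay above the control libraries, but the wild-type range overlapped both. The log2 fold change was 0.67 (SE 0.20) for repopulated over control, -0.28 (SE 0.19) for control over wild type and 0.39 (SE 0.19) for repopulated over wild type (edgeR adjusted p = 0.121, 0.336 and 0.354). DESeq2 called Ulk1 for repopulated over control, at 0.65 and an adjusted p of 0.0426, in a range of 0.0426 to 0.472 over the 21 alternatives. Its paralogue Ulk2 was more abundant per length in every library, with Ulk2 over Ulk1 TPM ratios of 2.65 to 4.93 in repopulated, 4.75 to 8.10 in control and 4.27 to 5.58 in wild-type libraries. Atg13, the regulatory subunit, averaged 17.6 ± 1.60 CPM in repopulated, 12.2 ± 2.46 CPM in control and 17.7 ± 1.68 CPM in wild-type libraries (SD, n = 3, 3 and 4). Its control libraries lay below those of both other groups, at edgeR adjusted p = 0.0653 for control over wild type and 0.185 for repopulated over control. Rb1cc1, the scaffold FIP200, had log2 fold changes of -0.15, -0.18 and -0.34 for control over wild type, repopulated over control and repopulated over wild type.

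In the class III PI3-kinase complexes Atg14 fell in control against wild type, and the other 4 genes did not pass edgeR's test. Atg14 (chr14:47540893-47568434), the subunit that directs the lipid kinase to forming autophagosomes, had 18.6, 22.1 and 21.9 CPM in repopulated, 17.6, 12.4 and 12.8 CPM in control, and 29.2, 20.9, 23.5 and 22.9 CPM in wild-type libraries. All control libraries lay below all repopulated and all wild-type libraries. Atg14 fell in control against wild type by 0.76 on the log2 scale (SE 0.19, edgeR adjusted p = 0.0117), and for repopulated over control the log2 fold change was 0.55 (SE 0.20, edgeR adjusted p = 0.166). The fall did not pass without control 2 (edgeR adjusted p = 0.0549), without control 3 (0.0517) or without the libraries low in Y-linked transcripts (0.0502), in a range of 0.00234 to 0.0549. After correction for GC content and length it was -0.79 (edgeR adjusted p = 0.00486).

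Becn1, the scaffold subunit shared by both complexes, had 168, 160 and 190 CPM in repopulated, 193, 157 and 191 CPM in control, and 111, 141, 179 and 146 CPM in wild-type libraries. The ranges of all 3 groups overlapped. The log2 fold change was 0.32 (SE 0.15, edgeR adjusted p = 0.167) for control over wild type, with 0.44 and edgeR adjusted p = 0.0393 without wild-type 3 (range 0.0393 to 0.793). It was -0.06 for repopulated over control and 0.26 for repopulated over wild type (edgeR adjusted p = 0.886 and 0.483). Becn1 overlaps Cntd1 by 444 bases in RefSeq, and the sources used here do not say whether counting used strand, so reads of the overlap cannot be told apart. The same holds for Map1lc3b with Zcchc14 (64 bases), Vps16 with Pced1a (322 bases) and Atg12 with Ap3s1 (31 bases). The catalytic subunit Pik3c3, its partner Pik3r4 and Uvrag, the subunit of the endosomal complex, had log2 fold changes between -0.24 and 0.32 in the 3 comparisons and did not pass.

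Among the membrane source and the readers of the lipid mark, Atg9a (chr1:75180861-75192010) changed. It encodes the transmembrane lipid scramblase whose vesicles seed the autophagosome. Atg9a had 13.2, 15.98 and 9.76 CPM in repopulated, 6.99, 3.98 and 6.46 CPM in control, and 12.5, 12.8, 10.53 and 11.9 CPM in wild-type libraries. The control libraries lay below all others, and the repopulated libraries spanned the wild-type range. The difference, control over wild type, was -1.04 on the log2 scale (SE 0.25, edgeR adjusted p = 0.0101), a fall of 2.06-fold that passed in all 21 alternatives (adjusted p 0.00137 to 0.0486). The value was -1.54 without the libraries low in Y-linked transcripts, where control 2, the lowest library, stands alone. Repopulated over control was 1.16 (SE 0.26, edgeR adjusted p = 0.0607, range 0.0291 to 0.337), which passed in 5 of 21 alternatives, and repopulated over wild type was 0.12 (SE 0.24, edgeR adjusted p = 0.89). Without wild-type 3, which shares the estimate of spread, repopulated over control was 1.17 and passed (edgeR adjusted p = 0.0298), as it did without the libraries low in Y-linked transcripts (1.71, edgeR adjusted p = 0.0475). Wipi1 and Wipi2, the PI3P readers, averaged 3.62 ± 0.416 and 32.4 ± 3.58 CPM in repopulated, 2.48 ± 0.115 and 26.5 ± 3.06 CPM in control, and 3.27 ± 1.23 and 29.8 ± 4.09 CPM in wild-type libraries (SD, n = 3, 3 and 4), with no call.

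In the conjugation machinery, Atg4b and Atg16l2 fell in control against wild type, and the other 6 genes did not pass edgeR's test. Atg4b (chr1:93754905-93789606) encodes the protease that processes LC3 and GABARAP before their conjugation. It had 33.4, 38.5 and 36.1 CPM in repopulated, 26.9, 27.7 and 29.6 CPM in control, and 40.5, 36.0, 34.1 and 44.1 CPM in wild-type libraries. The control libraries lay below all others, by as little as 33.4 against 29.6 CPM. The fall was -0.46 on the log2 scale (SE 0.14, edgeR adjusted p = 0.0336). It passed in 10 of 21 alternatives (adjusted p 0.00823 to 0.221), and leaving out any library other than repopulated 3, wild-type 2 or wild-type 3 ended the call, at values of -0.50 to -0.40 and edgeR adjusted p of 0.0518 to 0.132. It was also lost without the libraries low in Y-linked transcripts (-0.50, edgeR adjusted p = 0.221). Repopulated over control was 0.36 (SE 0.15, edgeR adjusted p = 0.217).

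Atg16l2 (chr7:101286325-101302267) encodes a paralogue of ATG16L1, the protein that brings the conjugation complex to the membrane. It had 43.1, 41.5 and 30.6 CPM in repopulated, 19.0, 22.1 and 30.4 CPM in control, and 58.8, 40.5, 26.7 and 44.0 CPM in wild-type libraries. Wild-type 3 lay within the control range, and control 3 reached almost to repopulated 3. The value of control over wild type was -0.83 (SE 0.24, edgeR adjusted p = 0.0258), and repopulated over control was 0.69 (SE 0.25, edgeR adjusted p = 0.174). The fall passed in 15 of 21 alternatives (adjusted p 0.00249 to 0.164). It did not pass without control 1 (-0.69, edgeR adjusted p = 0.127), without control 2 (-0.78, 0.0991), without wild-type 1 (-0.63, 0.0735), without wild-type 4 (-0.82, 0.055) or without the libraries low in Y-linked transcripts (-0.96, 0.164). Atg16l1 itself averaged 45.9 ± 3.29 CPM in repopulated, 38.1 ± 3.997 CPM in control and 41.04 ± 10.2 CPM in wild-type libraries (SD, n = 3, 3 and 4). The Atg16l1 over Atg16l2 TPM ratio was 1.97 to 2.59 in repopulated, 2.18 to 3.97 in control and 1.61 to 1.95 in wild-type libraries, so both 5xFAD groups lay above the wild-type range. The ratio was not tested.

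Atg7, the E1-like enzyme that activates ATG12 and the ATG8 proteins, had 11.3, 12.2 and 14.01 CPM in repopulated, 9.75, 10.2 and 12.96 CPM in control, and 11.3, 8.02, 10.4 and 9.47 CPM in wild-type libraries. The repopulated libraries lay above the wild-type libraries by a margin within rounding, and the control range overlapped both. The log2 fold change was 0.16 (SE 0.21) for control over wild type, 0.19 (SE 0.22) for repopulated over control and 0.35 (SE 0.21) for repopulated over wild type (edgeR adjusted p = 0.62, 0.697 and 0.475). Atg10, the E2-like enzyme for ATG12, had 15.3, 13.4 and 20.2 CPM in repopulated, 23.1, 25.4 and 27.1 CPM in control, and 12.3, 19.8, 21.3 and 14.6 CPM in wild-type libraries. Its control libraries lay above all others, as in no other of the 41 genes. It did not pass at 0.57 for control over wild type (SE 0.21, edgeR adjusted p = 0.0791) or at -0.63 for repopulated over control (SE 0.23, edgeR adjusted p = 0.171). Without wild-type 3 the first value was 0.69 and passed (edgeR adjusted p = 0.027, range 0.027 to 0.329). Atg3, the E2-like enzyme for the ATG8 proteins, varied widely within groups, at 50.1 to 93.1 CPM in repopulated, 41.2 to 85.5 CPM in control and 54.3 to 110 CPM in wild-type libraries. Atg5 and Atg12, which are joined to each other, had log2 fold changes between -0.29 and 0.21 and did not pass.

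The ATG8 family had no call in control against wild type. There 3 of its 5 genes had an unadjusted p under 0.05, against 31.8% of all tested genes, and DESeq2 called 1, Map1lc3b. Gabarapl1 rose in repopulated against wild type. All 5 log2 fold changes were positive in both 5xFAD groups against wild type, at 0.17 to 0.42 for control and 0.08 to 0.66 for repopulated. Under a correction for GC content and length Gabarapl2 turned to -0.07 and -0.05, and without the libraries low in Y-linked transcripts Map1lc3a turned to -0.73 and Gabarapl1 to -0.08 for control over wild type, with Gabarap at about 0. Control 2 was the lowest library of its group for Map1lc3a, Map1lc3b, Gabarap and Gabarapl1.

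Gabarapl1 (chr6:129533192-129542331) encodes a GABARAP-type ATG8 protein. It had 34.3, 36.0 and 36.3 CPM in repopulated, 34.3, 21.4 and 35.2 CPM in control, and 21.5, 22.1, 24.6 and 22.2 CPM in wild-type libraries. All repopulated libraries and 2 of the 3 control libraries lay above the wild-type libraries, and control 2 lay just below them. Repopulated over wild type was 0.65 (SE 0.17, edgeR adjusted p = 0.0445), a rise of 1.57-fold. The rise was 0.48 with the GC and length correction, where it did not pass (edgeR adjusted p = 0.0802). It passed in 9 of 21 alternatives (adjusted p 0.00901 to 0.17), and leaving out any library other than control 2 or wild-type 3 ended the call, at values of 0.64 to 0.68 and edgeR adjusted p of 0.0502 to 0.17. It was also lost without the libraries low in Y-linked transcripts (0.66, edgeR adjusted p = 0.065). Control over wild type was 0.42 (SE 0.17, edgeR adjusted p = 0.106), and 0.62 without control 2 (edgeR adjusted p = 0.0122, range 0.0122 to 0.851). Repopulated over control was 0.23 (SE 0.18, edgeR adjusted p = 0.535).

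Map1lc3b, the LC3 protein commonly used to mark autophagosomes, had 442, 387 and 469 CPM in repopulated, 493, 458 and 484 CPM in control, and 265, 418, 421 and 333 CPM in wild-type libraries. The control libraries lay above all wild-type libraries, and the repopulated range overlapped both groups. The log2 fold change was 0.41 (SE 0.16, edgeR adjusted p = 0.0831, range 0.0388 to 0.292) for control over wild type, and 0.49 without wild-type 3, where it passed (edgeR adjusted p = 0.0388). It was -0.14 (SE 0.17) for repopulated over control and 0.27 (SE 0.16) for repopulated over wild type (edgeR adjusted p = 0.693 and 0.479). Map1lc3a was near constant within repopulated libraries at 33.1, 33.9 and 33.6 CPM and within wild-type libraries at 21.8, 21.1, 21.9 and 20.2 CPM, while control libraries had 26.9, 12.7 and 32.0 CPM. Its repopulated libraries lay above both other groups, and control 2 lay below all other libraries. Repopulated over wild type was 0.66 (SE 0.23, edgeR adjusted p = 0.15, range 0.0109 to 0.369), and it passed without control 2 (edgeR adjusted p = 0.0109). Map1lc3a in repopulated over control was 0.49 (SE 0.25, edgeR adjusted p = 0.302, range 0.02 to 0.716), and it passed without the libraries low in Y-linked transcripts (1.40, edgeR adjusted p = 0.02), where control 2 is the only control library. The Map1lc3b over Map1lc3a TPM ratio ran from 4.12 to 5.04 in repopulated, 5.46 to 13.1 in control and 4.42 to 7.18 in wild-type libraries. Gabarap averaged 131 ± 4.58 CPM in repopulated, 120 ± 23.4 CPM in control and 94.2 ± 10.4 CPM in wild-type libraries (SD, n = 3, 3 and 4), with a log2 fold change of 0.47 for repopulated over wild type (edgeR adjusted p = 0.0967, range 0.03 to 0.292). That value passed under DESeq2 (0.47, adjusted p = 0.0466), without control 2 (0.47, edgeR adjusted p = 0.03) and without wild-type 3 (0.55, edgeR adjusted p = 0.0393). For control over wild type Gabarap was not called with all libraries, and it passed without control 2 (0.51, edgeR adjusted p = 0.02).

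Of the 6 genes for cargo receptors and their kinase, Optn rose and Wdfy3 fell in control against wild type, and Wdfy3 rose in repopulated against control. Wdfy3 (chr5:101832953-102072215) encodes ALFY, a large scaffold that links protein aggregates to the autophagy machinery, and its locus overlaps the lncRNAs Gm20548 and Gm42135, which were not used here. It had 307, 313 and 249 CPM in repopulated, 170, 155 and 200 CPM in control, and 310, 311, 278 and 369 CPM in wild-type libraries. All control libraries lay below all others, and the repopulated range overlapped the wild-type range. Control over wild type was -0.86 (SE 0.14, edgeR adjusted p = 0.000831), a fall of 1.81-fold that passed in all 21 alternatives (adjusted p 1.73e-07 to 0.0209). After the correction for GC content and length it was -0.57 (edgeR adjusted p = 0.00579). Repopulated over control was 0.73 (SE 0.15, edgeR adjusted p = 0.0496), a rise of 1.65-fold that passed in 10 of 21 alternatives (adjusted p 0.000535 to 0.267). The rise did not pass without repopulated 1 (0.68, edgeR adjusted p = 0.227), repopulated 2 (0.67, 0.267), repopulated 3 (0.82, 0.0554), control 1 (0.71, 0.153), control 2 (0.64, 0.196), wild-type 2 (0.73, 0.0607) or wild-type 4 (0.73, 0.0521), nor without the libraries low in Y-linked transcripts (0.91, 0.0605). With the GC and length correction it was 0.54 (edgeR adjusted p = 0.0849). Repopulated over wild type was -0.13 (SE 0.14, edgeR adjusted p = 0.758), with an approximate 95% interval of -0.41 to 0.15. The interval takes the estimate as normally distributed, which may make it too narrow with so few libraries.

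Optn (chr2:5020521-5064399) encodes optineurin, a receptor for ubiquitinated cargo such as damaged mitochondria that is phosphorylated by TBK1. It had 8.72, 8.89 and 12.02 CPM in repopulated, 11.5, 11.2 and 13.01 CPM in control, and 2.31, 3.28, 8.59 and 2.83 CPM in wild-type libraries. Both 5xFAD groups lay above all wild-type libraries, and wild-type 3, at 8.59 CPM, stood close to the lowest repopulated library. Optn in control over wild type was 1.49 (SE 0.37, edgeR adjusted p = 0.012), a rise of 2.80-fold. Without wild-type 3 it was 2.08 (edgeR adjusted p = 2.68e-05), and without the libraries low in Y-linked transcripts 1.30, which did not pass (edgeR adjusted p = 0.209, the highest of the 21 alternatives). Repopulated over wild type was 1.22 (SE 0.37, edgeR adjusted p = 0.0894, range 0.000188 to 0.327), with 1.82 and edgeR adjusted p = 0.000188 without wild-type 3. Wild-type 3 also had the highest summed astrocyte markers, at 546.8 CPM where wild-type 1, 2 and 4 had 222.7 to 314.0 CPM, and summed erythrocyte markers of 185 CPM against 0.0449 to 13.4 CPM. The part of these markers in the Optn value was not tested.

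Sqstm1, the receptor p62, which binds ubiquitinated cargo and LC3, had 162, 152 and 170 CPM in repopulated, 155, 135 and 181 CPM in control, and 142, 124, 107 and 126 CPM in wild-type libraries. The repopulated libraries lay above the wild-type libraries, and control 2 lay within the wild-type range. The log2 fold change was 0.33 (SE 0.13, edgeR adjusted p = 0.106) for control over wild type, 0.04 (SE 0.14, edgeR adjusted p = 0.919) for repopulated over control and 0.37 (SE 0.13, edgeR adjusted p = 0.178) for repopulated over wild type. With the GC and length correction the first was 0.45 and passed (edgeR adjusted p = 0.0106, range 0.0106 to 0.753). Nbr1, a receptor related to p62, averaged 64.0 ± 2.17 CPM in repopulated, 62.8 ± 1.07 CPM in control and 63.4 ± 5.03 CPM in wild-type libraries (SD, n = 3, 3 and 4). The approximate 95% intervals of its log2 fold changes, made as for Wdfy3 and perhaps too narrow, all lay between -0.25 and 0.28. Tbk1 and Calcoco1 had no call, with log2 fold changes of -0.11 to 0.01 and -0.21 to 0.34.

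**Figure D3:**
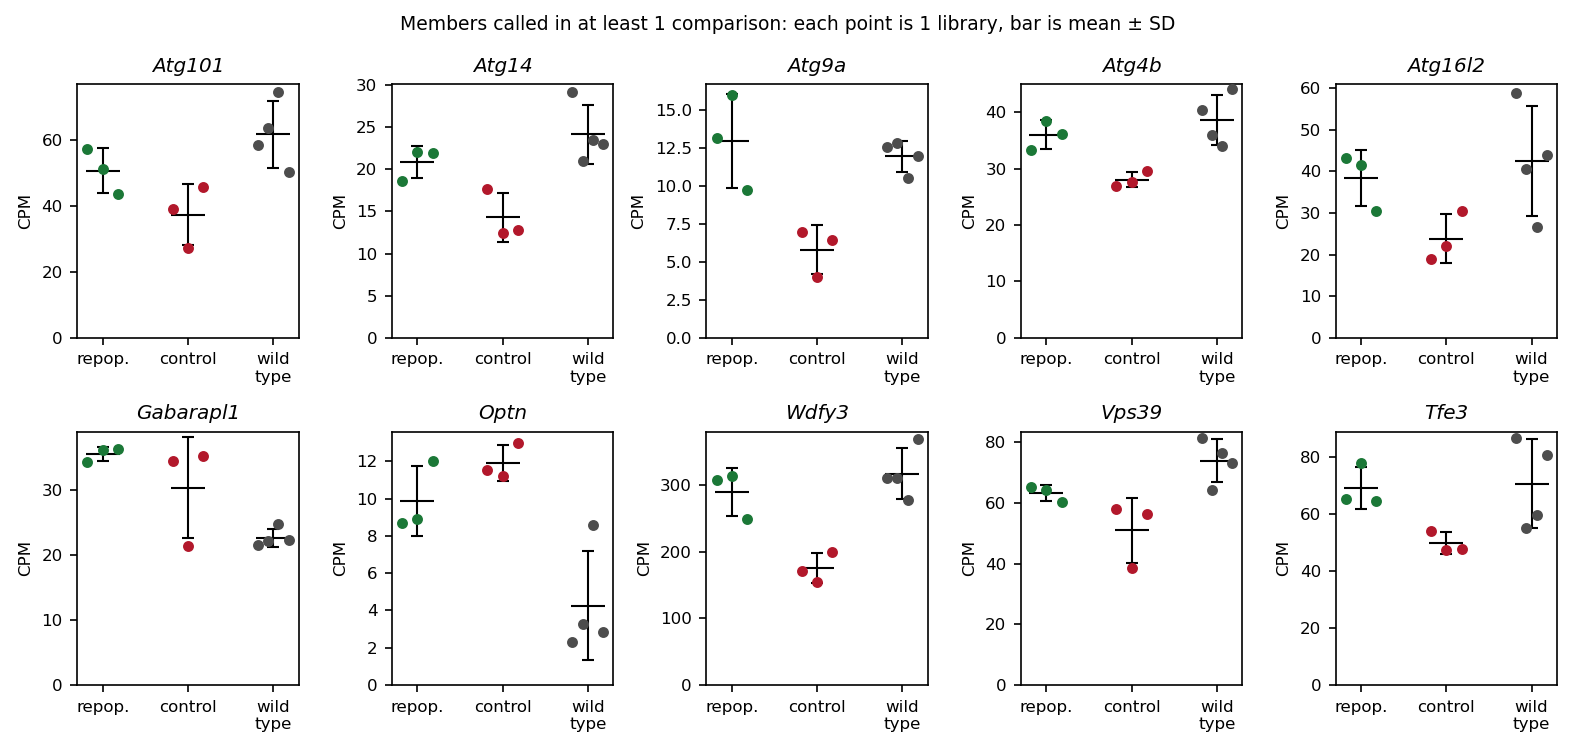
CPM of the 10 genes called in at least 1 comparison, with 1 point per library and mean ± SD, in 3 repopulated, 3 control and 4 wild-type libraries. Control libraries are lowest for Wdfy3, Atg9a, Atg14 and Atg4b, and wild-type 3 is the high wild-type point of Optn.

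Tethering of autophagosomes to lysosomes uses the HOPS complex, whose core subunits VPS11, VPS16, VPS18 and VPS33A also serve the endosomal CORVET complex, while VPS39 and VPS41 are particular to HOPS. Of these 6 genes and Epg5, which encodes another tether, Vps39 (chr2:120316461-120353142) fell in control against wild type. Vps39 had 65.2, 64.4 and 60.4 CPM in repopulated, 57.9, 38.7 and 56.5 CPM in control, and 81.4, 64.5, 76.5 and 73.3 CPM in wild-type libraries. Control libraries lay below all others, with control 2 far lowest. Control over wild type was -0.53 (SE 0.15, edgeR adjusted p = 0.0253, range 0.0107 to 0.106). It was -0.37 without control 2 (edgeR adjusted p = 0.106), -0.48 without wild-type 1 (0.059) and -0.54 without wild-type 4 (0.0512). Repopulated over control was 0.31 (SE 0.16, edgeR adjusted p = 0.321). Vps41 was 0.11, -0.03 and 0.08 for control over wild type, repopulated over control and repopulated over wild type. The 4 core genes had log2 fold changes of -0.31 to -0.05 for control over wild type, 0.17 to 0.27 for repopulated over control and -0.04 to 0.18 for repopulated over wild type, with no call. Under the GC and length correction Vps18 had the opposite sign, at 0.17 for control over wild type and -0.18 for repopulated over control. Epg5 averaged 15.7 ± 1.11 CPM in repopulated, 12.97 ± 1.47 CPM in control and 12.4 ± 4.55 CPM in wild-type libraries (SD, n = 3, 3 and 4).

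Tfe3 (chrX:7762530-7775202), of the transcription factors, fell in control against wild type close to the threshold, and Tfeb did not pass. Tfe3 had 65.1, 77.6 and 64.6 CPM in repopulated, 54.1, 47.2 and 47.5 CPM in control, and 86.7, 55.0, 59.5 and 80.7 CPM in wild-type libraries. The control libraries lay below all others, by 54.1 against 55.0 CPM at the nearest wild-type library. Control over wild type was -0.51 (SE 0.17, edgeR adjusted p = 0.0479), which passed in 6 of 21 alternatives (adjusted p 0.0197 to 0.15). Leaving out any library other than wild-type 2 or wild-type 3 ended the call, at values of -0.57 to -0.38 and edgeR adjusted p of 0.0633 to 0.142. It was also lost without the libraries low in Y-linked transcripts (-0.67, edgeR adjusted p = 0.129). Repopulated over control was 0.48 (SE 0.18, edgeR adjusted p = 0.176) and repopulated over wild type -0.03 (SE 0.17, edgeR adjusted p = 0.968).

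Tfeb was scarce, at 6.11, 9.24 and 6.10 CPM in repopulated, 6.06, 3.27 and 5.94 CPM in control, and 8.63, 5.41, 8.20 and 9.16 CPM in wild-type libraries. The repopulated libraries lay above the control libraries by 6.10 against 6.06 CPM, and the control and wild-type ranges overlapped. Tfeb in control over wild type was -0.62 (SE 0.30, edgeR adjusted p = 0.166), repopulated over control 0.49 (SE 0.32, edgeR adjusted p = 0.431) and repopulated over wild type -0.14 (SE 0.29, edgeR adjusted p = 0.899). Tfe3 was more abundant than Tfeb per length in every library, with Tfe3 over Tfeb TPM ratios of 5.89 to 7.60 in repopulated, 5.61 to 10.2 in control and 5.10 to 7.14 in wild-type libraries. Tfeb (63.2%), Map1lc3a (63.1%) and Ulk1 (58.0%) are among the GC-richest transcripts of the 41 genes, and the Tfeb value for repopulated over control was 0.07 after the GC and length correction.

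**Figure D4:**
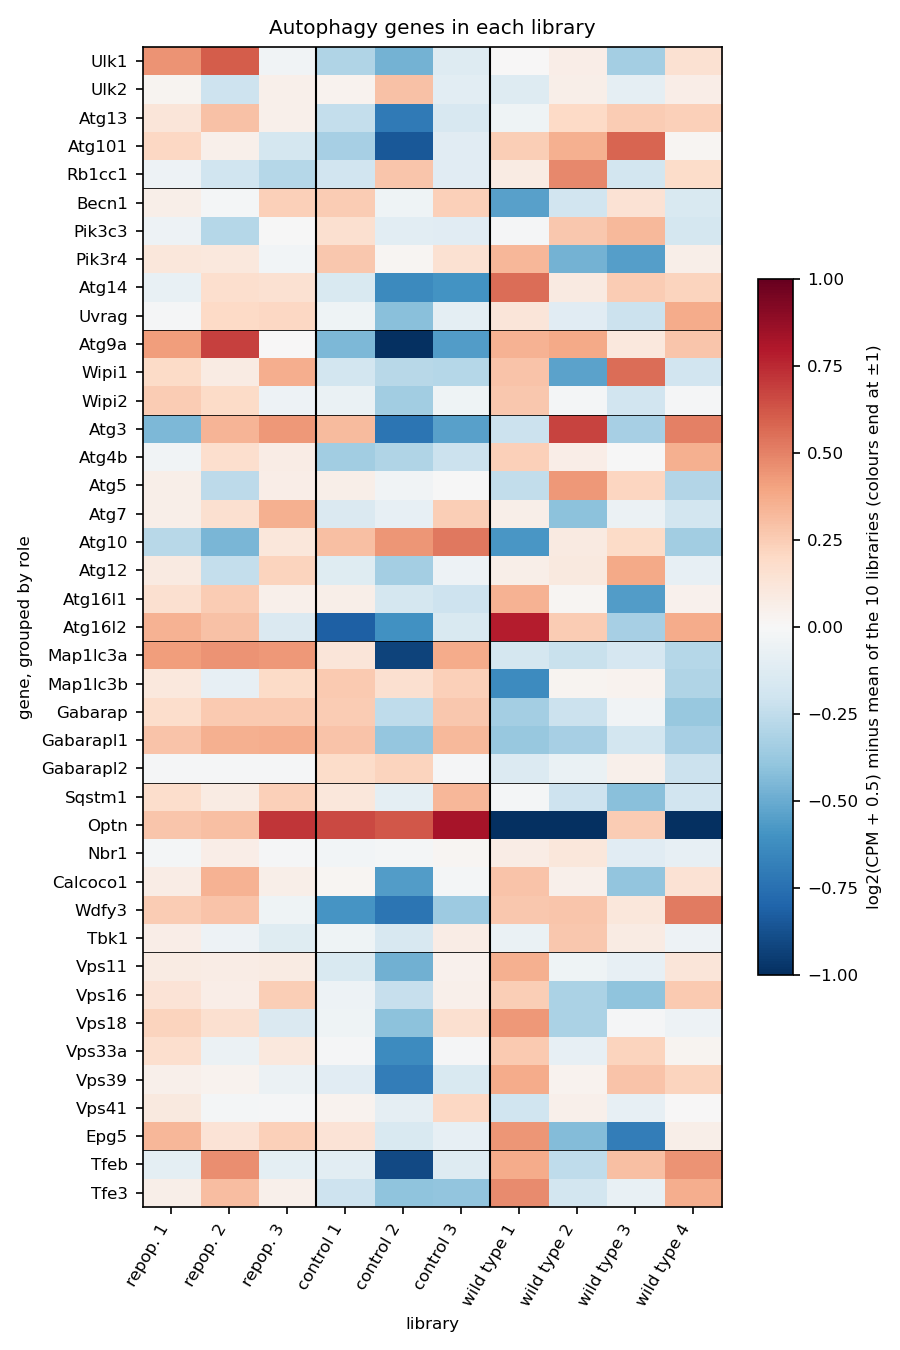
Log2(CPM + 0.5) of each of the 41 genes minus its mean over the 10 libraries, with colours ending at 1 in either direction, genes grouped by role and libraries ordered as repopulated, control and wild type. Control 2 is the lowest library of its group for 30 of the 41 genes, and Optn is below its mean in wild-type 1, 2 and 4 and not in wild-type 3.

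Other genes of the pathway were counted in 3 lists of 88 genes, 86 of them tested, chosen with earlier results of these data known. Values of single genes of these lists are from the fit of all 10 libraries. The lists together had 29 called genes in control against wild type, and 18 without control 1. Of 22 lysosomal genes with known CLEAR elements, 9 rose and 1 fell in control against wild type (45.5%, against 18.1% of all genes), with a median log2 fold change of 0.43. Gla, alpha-galactosidase, averaged 22.4 ± 5.88 CPM in repopulated, 33.3 ± 6.52 CPM in control and 7.20 ± 1.18 CPM in wild-type libraries (SD, n = 3, 3 and 4), and rose by a log2 fold change of 2.21 in control and of 1.64 in repopulated against wild type (edgeR adjusted p = 7.99e-06 and 0.00026). The protease Ctsb (log2 fold change 1.30) and the glycosidases Hexa (1.02) and Glb1 (1.06) rose in control, and Sgsh, a sulfatase of heparan sulfate breakdown, fell by 1.73 on the log2 scale. In repopulated against wild type 6 rose and 1, Sgsh, fell (31.8%, against 4.18% of all genes), with the proteases Ctsd and Ctsb and with Hexa at log2 fold changes of 1.21, 1.17 and 1.02.

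Of 27 tested nutrient-sensing regulators, 5 rose and 5 fell in control against wild type (37.0%, against 18.1% of all genes, where 10.1% rose and 8.04% fell). Rragd, a Rag GTPase that recruits mTORC1 to the lysosome, averaged 8.61 ± 1.62 CPM in repopulated, 13.6 ± 2.37 CPM in control and 1.35 ± 0.689 CPM in wild-type libraries, and rose by log2 fold changes of 3.32 in control and 2.66 in repopulated against wild type (edgeR adjusted p = 2.08e-05 and 0.000328). Fnip2, a partner of folliculin, rose by 0.87 and Rragc, another Rag GTPase, by 0.77 in control, while Prkab1, a subunit of the energy sensor AMPK, fell by 0.97. Rragd was the only 1 of the 27 that passed for repopulated over wild type (3.70%, against 4.18% of all genes).

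Of 37 other tested autophagy genes, 6 rose and 3 fell in control against wild type (24.3%, against 18.1% of all genes). The 3 that fell are 8.11% of the 37 genes, near the 8.04% of all genes that fell. Bcl2, which binds BECN1, rose by 2.21, Bnip3, a mitophagy receptor, by 1.05 and Tecpr1, a lysosomal tether, by 0.63, while Rubcn, an inhibitor of autophagosome maturation, fell by 1.01. Tecpr1 (0.70), Bcl2 (1.42) and Bnip3 (0.71) also rose in repopulated against wild type (8.11% of the 37, against 3.4% of all genes that rose). In repopulated against control none of the 86 genes passed edgeR's test, with 9, 9 and 2 of the other autophagy, nutrient-sensing and lysosomal genes at an unadjusted p under 0.05 (24.3%, 33.3% and 9.09%, against 18.5% of all genes). DESeq2 called 5, 2 and 0 of them and limma-voom 0 of the 86. Calls among all tested genes in this comparison ran from 0 to 698 over the fit of all 10 libraries and the 21 alternatives. The DESeq2 counts are therefore not read as particular to these lists. The smallest adjusted p-values there were those of Retreg1, an ER-phagy receptor (-0.61, edgeR adjusted p = 0.0607), and Rubcn (0.87, edgeR adjusted p = 0.0782).

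**Figure D5:**
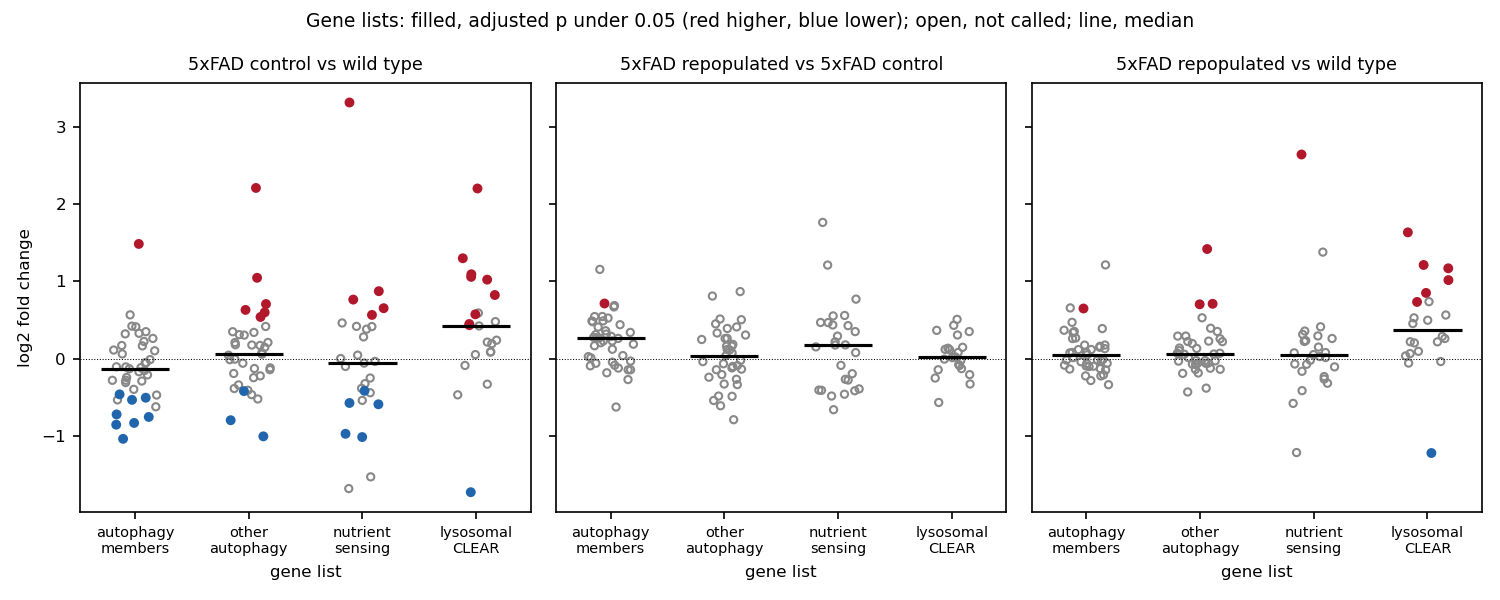
Log2 fold change of each tested gene of the 41 autophagy genes and of 3 further lists in the 3 comparisons, filled where the edgeR adjusted p is under 0.05, with a line at the median. In control against wild type the median is 0.43 for the lysosomal genes and -0.13 for the 41 autophagy genes, and Rragd is the highest point at 3.32.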

How the data were processed

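Smart-Seq libraries came from sorted hippocampal microglia, per the labels' protocols. HISAT, Bowtie2 and GRCm38.p6 are named in the submitters' processing notes, while quantifier and strand use were not given in the sources used here. The authors deposited 3 values per gene and library: estimated counts (unnormalised, 20.1% of nonzero values not whole at a tolerance of 0.001), FPKM (scaled for length and library size, not used) and TPM (used for levels and ratios between genes and for summed levels).

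After rounding of the estimated counts to whole numbers, genes were tested by edgeR (4.0.16; R 4.3.3, limma 3.58.1, DESeq2 1.42.0) with filterByExpr, TMM, a prior count of 0.125 and robust quasi-likelihood fitting of all 3 groups together, adjusted by Benjamini-Hochberg over 12505 genes at 0.05. The biological coefficient of variation was 27.3%, and the test was tried on simulated data. There were 21 alternatives: other scalings, tools and filters, the compared groups alone, a replicate block, a GC and length correction, 10 fits without 1 library each, and 1 without the 3 libraries low in Y-linked transcripts.

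The genes, lists and alternatives were chosen with earlier results of these data known. Given in full are genes called in any comparison and Tfeb, Tfe3, Sqstm1, Map1lc3b, Becn1, Ulk1 and Atg7; of each further list, up to 4 genes with the smallest p per comparison. Other genes named singly were picked after their values were seen. Gene positions and promoter windows are from RefSeq on GRCm38.p6.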

Additional observations from a re-analysis of the deposited data

Results flagged for a closer look

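Optn in wild-type 3 was at 8.59 CPM, far from the 2.31 to 3.28 CPM of the other 3 wild-type libraries; the gap was 0.847 of the group's range, above Dixon's 95% critical value for 4 samples. Chance puts about 1 in 20 groups past this value, and the wild-type libraries of all 41 genes were examined. The library also stands apart in its summed neuronal, astrocyte, oligodendrocyte and erythrocyte markers, whose part in the Optn value was not tested.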

How the results depend on the processing

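Control against wild type called 9 of the 41 genes, and 5 to 12 with each library left out in turn; without the libraries low in Y-linked transcripts it called 4. Repopulated against control called 1, with 0 under DESeq2 size factors, the replicate block and the GC and length correction, 2 under DESeq2, no filter, a filter of 5 CPM, the compared groups alone and without the libraries low in Y-linked transcripts, and 0 to 2 with a library left out. Repopulated against wild type called 1, with 0 under upper-quartile factors, the replicate block, the GC and length correction and without the libraries low in Y-linked transcripts, 2 under limma-voom, no filter and the compared groups alone, 3 under DESeq2, and 0 to 3 with a library left out. The 3 further lists together had 29, 0 and 11 called genes in these comparisons, and 18 to 30, 0 to 3 and 7 to 12 with a library left out. Without the libraries low in Y-linked transcripts they had 13 in control against wild type. In repopulated against control they had 7 without those libraries, under DESeq2 and with the compared groups alone, and 1 with no filter and with the filter of 5 CPM. Calls among all tested genes moved too, from 1202 to 2910 in control against wild type. They ran from 0 to 698 in repopulated against control and from 284 to 780 in repopulated against wild type. These ranges cover the fit of all 10 libraries and the 21 alternatives. No called gene of the 41 or of the 3 lists changed direction in any alternative, and the cause of the differing counts was not tested. Libraries that share a replicate number correlated at -0.105 to 0.0705 in their deviations from the group means, and libraries with different numbers at -0.109 to 0.129. These correlations cannot show whether libraries with the same number were handled together. With the replicate block, 6, 0 and 0 of the 41 genes were called, beside 1464, 25 and 376 of all tested genes. The depth of 18501136 estimated counts or more leaves Tfeb, Wipi1, Optn and Atg9a with few counts relative to the other genes.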
